A study of Mus musculus with 46 samples.

Results

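Acetylcholine in the striatum comes largely from a sparse population of large, tonically active interneurons, and the genes described here make, carry, degrade and sense that transmitter. The 10 mouse genes were chosen by name, with earlier results of these data known, and found in the deposited tables by their Ensembl IDs. They are Chat, Slc5a7, Slc18a3, Ache and Lhx8, called cholinergic neuron genes here, and the 5 muscarinic receptor genes Chrm1 to Chrm5. These are 10 of the 43346 genes in the tables. All 10 were found, all 10 had enough reads to be tested in the striatum, and 7 had enough in the cortex, where Slc18a3, Lhx8 and Chrm5 were close to the limit of detection.

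The RNA-seq libraries came from striatum and cerebral cortex of R6/2 mice on a C57BL6/J background, which express exon 1 of human huntingtin with a long CAG repeat from the human gene's own promoter, and of WT mice without the transgene. R6/2 mice given CHDI-00340246, an inhibitor of kynurenine 3-monooxygenase (KMO), are called treated here: 8 mice, 4 of each sex, dosed by mouth at 30 mg/kg, 2 doses a day, between 4 and 12 weeks of age. R6/2 mice given only the carrier solution, cyclodextrin in citrate, are called vehicle (7 mice, 4 females and 3 males). WT mice given the same solution are called WT (8 mice, 4 of each sex). Tissue was taken at 12 weeks of age, each of the 23 mice gave 1 striatal and 1 cortical library, and no WT mouse received the compound, so an effect of the compound without the transgene was not measured.

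Choline acetyltransferase, encoded by Chat, joins choline to an acetyl group. Slc5a7 encodes the high-affinity choline transporter that takes choline back into the terminal, and Slc18a3 the transporter that fills synaptic vesicles with acetylcholine. Acetylcholinesterase, encoded by Ache, ends the signal, and Lhx8 is a LIM homeodomain factor that directs forebrain cholinergic neurons to their fate. The M1, M3 and M5 receptors (Chrm1, Chrm3, Chrm5) act through Gq proteins, which raise intracellular calcium and close the M-type potassium channel. M2 and M4 (Chrm2, Chrm4) act through Gi/o proteins, which lower cyclic AMP. In the striatum M1 is found on most spiny projection neurons, M4 is richest on those of the direct pathway, and M2 is among the autoreceptors of the cholinergic interneurons themselves.

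Chat and Slc18a3 form 1 locus. In mm10 (GENCODE vM21 gene models), Chat lies on the minus strand at chr14:32408203-32465989 and the single exon of Slc18a3 at chr14:32462438-32464850 on the same strand, inside the first intron of Chat, with 1 Chat exon block upstream of it, 16 downstream and no shared exon bases. Slc5a7 lies at chr17:54273590-54299034 (minus strand), Ache at chr5:137287519-137294466 (plus), Lhx8 at chr3:154306294-154330659 (minus), Chrm1 at chr19:8663789-8683587 (plus), Chrm3 at chr13:9875486-10360847 (minus), Chrm5 at chr2:112479171-112480769 (minus), Chrm2 at chr6:36388084-36528414 (plus) and Chrm4 at chr2:91927249-91928688 (plus). Exons of Ache share 98 bases with Gm42456 on the opposite strand, exons of Chrm1 share 329 with Gm22820 and exons of Chrm2 share 142 with 9330158H04Rik. Whether reads were counted by strand is not given in the sources used here, so reads over those stretches cannot be assigned to 1 gene with certainty.

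The promoters shown are those of the 4 members that fell most in the R6/2 striatum, picked by the size of that fall. Whether these genes are regulated together was not tested. Each run is the 250 bases before the RefSeq start (GRCm38.p6), written 5′ to 3′ on the gene's own strand, with matches to the cyclic AMP response element core TGACG and the GC box core GGGCGG, on either strand, in capitals. The windows are chr14:32465910-32466159 for Chat, chr14:32464851-32465100 for Slc18a3, chr17:54299035-54299284 for Slc5a7 (all minus strand) and chr2:91921939-91922188 for Chrm4 (plus strand).
Chat: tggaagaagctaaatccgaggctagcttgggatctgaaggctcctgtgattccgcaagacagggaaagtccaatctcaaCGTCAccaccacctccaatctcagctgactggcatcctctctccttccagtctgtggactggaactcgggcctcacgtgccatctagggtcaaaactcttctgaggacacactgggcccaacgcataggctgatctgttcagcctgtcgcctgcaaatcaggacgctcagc
Slc18a3: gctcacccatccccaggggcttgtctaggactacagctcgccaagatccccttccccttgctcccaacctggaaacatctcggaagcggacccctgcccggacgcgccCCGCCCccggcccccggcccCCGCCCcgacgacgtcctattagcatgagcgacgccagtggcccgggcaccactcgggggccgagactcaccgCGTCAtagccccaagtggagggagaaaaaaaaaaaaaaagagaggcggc
Slc5a7: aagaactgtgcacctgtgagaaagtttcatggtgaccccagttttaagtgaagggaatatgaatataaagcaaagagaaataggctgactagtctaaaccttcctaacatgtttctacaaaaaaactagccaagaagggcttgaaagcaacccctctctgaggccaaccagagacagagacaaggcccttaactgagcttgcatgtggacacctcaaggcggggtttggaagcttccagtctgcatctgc
Chrm4: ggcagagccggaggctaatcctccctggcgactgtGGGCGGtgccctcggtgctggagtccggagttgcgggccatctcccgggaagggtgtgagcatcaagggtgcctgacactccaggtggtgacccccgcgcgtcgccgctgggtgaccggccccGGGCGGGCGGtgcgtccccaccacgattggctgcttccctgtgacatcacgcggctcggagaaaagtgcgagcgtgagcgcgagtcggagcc

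RefSeq places the starts of Chat and Slc18a3 1059 bases apart. TGACG occurs once in each of these neighbours, 171 bases before the start of Chat and 49 before that of Slc18a3, and in 17.8% of the 32851 RefSeq promoters of the same length. GGGCGG occurs in 32.7% of those promoters. It was found at 142 and 122 bases before the start of Slc18a3 and at 215, 92 and 88 before that of Chrm4, where the last pair overlap. Slc5a7 holds neither motif. The homeodomain core TAATTA, present in 4.84% of promoters, was found in none of the 4. GC content was 66.0% for Slc18a3 and 70.0% for Chrm4, against 54.8% for Chat, 45.6% for Slc5a7 and a median of 52.4% over all promoters. Among the other members with a sequence, GGGCGG was found in Ache and Chrm2, TAATTA in Chrm5, and no motif in Lhx8 or Chrm3. These are descriptions of letters in a window and not of bound sites.

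Striatal libraries held 30.39 to 36.04 and cortical libraries 31.79 to 37.83, in units of 1e+06 counts. Gm12695, a gene at the known insertion site of the R6/2 transgene, lay between 2.57 and 4.68 counts per 1e+06 counts of the library (CPM) in all R6/2 libraries and between 0 and 0.158 CPM in WT libraries, so the genotype labels held. Striatal and cortical dissections were distinct in WT mice: 10 markers of striatal projection neurons summed to 5400 to 7170 CPM in striatum and 259 to 417 CPM in cortex, and 7 markers of cortical projection neurons to 61.2 to 148 CPM in striatum and 1750 to 1990 CPM in cortex. Across all genes, 3 libraries stood apart from their groups. Treated striatum replicate 5 had a residual SD of 0.443 on the log2 scale and WT striatum replicate 1 of 0.402, against 0.216 to 0.290 in the other striatal libraries, and vehicle cortex replicate 4 had 0.350 against 0.221 to 0.331 in the other cortical libraries. The cortical margin was narrow, so this measure alone hardly sets that library apart. In treated striatum replicate 5 the projection neuron markers summed to 713 CPM, against 2050 to 2840 CPM in the other treated libraries. In vehicle cortex replicate 4 they summed to 341 CPM, against 137 to 145 CPM in the other vehicle cortices. Results that rest on these libraries are given with and without them where both were fitted. The second setting was chosen after the data were seen.

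In WT mice Chat, Slc5a7, Slc18a3 and Lhx8 were largely striatal, while Ache was also abundant in cortex. Levels between genes are compared here as FPKM, which is per transcript length. In WT striatum Ache averaged 44.9 ± 2.83 FPKM (SD, n = 8), Slc5a7 12.3 ± 0.504, Chat 11.9 ± 0.851, Lhx8 5.71 ± 0.599 and Slc18a3 4.81 ± 1.25 FPKM. In WT cortex Ache averaged 20.9 ± 1.69 FPKM (SD, n = 8), while Slc5a7 had 0.232 ± 0.0685, Chat 0.165 ± 0.0762, Slc18a3 0.114 ± 0.0286 and Lhx8 0.0432 ± 0.0468 FPKM. Chat was 71.2-fold, Slc5a7 52.4-fold and Slc18a3 40.5-fold higher in striatum than in cortex of the same WT mice, and Ache 2.01-fold higher. Lhx8 had 295 to 378 counts in WT striatum and 0 to 8 counts in WT cortex, where 2 libraries were at 0, so no single fold is given for it; its fitted log2 difference lay between 7.24 and 8.21 as each mouse was left out in turn.

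Among the receptors Chrm4 and Chrm1 led in WT striatum, at 36.0 ± 3.13 and 31.5 ± 2.73 FPKM, followed by Chrm3 at 3.37 ± 0.666, Chrm2 at 3.09 ± 0.369 and Chrm5 at 0.409 ± 0.103 FPKM (SD, n = 8). In WT cortex the order was Chrm1 at 37.8 ± 2.54, Chrm3 at 18.9 ± 2.25, Chrm4 at 10.4 ± 1.55, Chrm2 at 3.63 ± 0.406 and Chrm5 at 0.0482 ± 0.0414 FPKM (SD, n = 8). Striatum exceeded cortex 3.40-fold for Chrm4 and 8.12-fold for Chrm5, whose cortical counts were 0 to 8, and was 5.83-fold lower for Chrm3, 1.29-fold lower for Chrm1 and 1.20-fold lower for Chrm2. All 10 members differed between the tissues, 7 higher and 3 lower in striatum (edgeR quasi-likelihood test with the animal as a block, Benjamini-Hochberg adjusted p at most 0.012 for Chrm2). Of all 17051 genes tested, 62.8% were called, 31.2% higher and 31.6% lower in striatum. WT striatal and WT cortical libraries shared no run tag (L numbers in the sample descriptions). Tissue and run tag therefore cannot be told apart in this comparison, which bears most on the small differences of Chrm1 and Chrm2. In the whole order of WT striatal levels, the mean ± SD ranges overlapped between Chrm4 and Chrm1, Slc5a7 and Chat, Lhx8 and Slc18a3, Slc18a3 and Chrm3, and Chrm3 and Chrm2, so the order within those neighbours is not resolved. In WT cortex the same held for Ache and Chrm3, Slc5a7 and Chat, Chat and Slc18a3, Slc18a3 and Chrm5, and Chrm5 and Lhx8.

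The first comparison asks what the transgene did to these genes in the striatum. Vehicle R6/2 striatum held less of the mRNA for making acetylcholine, loading it into vesicles and taking choline back up, and less of the M4 receptor mRNA, than WT striatum, with falls of 2.62-fold to 3.52-fold. Ache, Lhx8, Chrm3 and Chrm2 fell by less, and Chrm1 and Chrm5 did not pass the test. In all, 8 of 10 members were called lower and 0 higher at an adjusted p under 0.05. The background was high: 50.2% of the 17394 genes tested were called, 25.8% higher and 24.5% lower. That split depended on the scaling: on log2 of the deposited FPKM plus 0.1, 6937 genes were called higher and 2727 lower, in place of 4480 and 4255, and the median over all genes was 0.124 higher in vehicle than in WT striatum. On that scale 7 members were called lower and 0 higher. The members' median log2 difference was -0.773, against 0.0017 over all genes tested. Because the members were chosen with earlier results of these data known, their contrast with all genes is a description only. In tissue homogenates, fewer cholinergic cells and less RNA per cell cannot be told apart.

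Chat had a lowest, median and highest value of 7.37, 9.75 and 11.4 CPM in treated, 8.44, 9.86 and 11.4 CPM in vehicle, and 31.9, 34.9 and 39.4 CPM in WT striatum. Every R6/2 library lay below every WT library, and the treated and vehicle values overlapped almost entirely. Vehicle striatum was 3.52-fold below WT (log2 difference -1.81 ± 0.08, SE; edgeR adjusted p 6.87e-14).

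Slc5a7 showed the same separation, and its difference had the smallest SE of the 10 genes. Its values were 18.7, 21.3 and 23.0 CPM in treated, 19.8, 22.6 and 25.2 CPM in vehicle, and 63.8, 66.9 and 72.2 CPM in WT striatum (lowest, median, highest). The vehicle mice were 2.96-fold below WT (-1.57 ± 0.05, edgeR adjusted p 1.46e-15).

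Slc18a3, the gene nested in Chat, had 2.62, 3.70 and 4.40 CPM in treated, 3.44, 4.56 and 6.42 CPM in vehicle, and 9.13, 11.6 and 19.2 CPM in WT striatum. R6/2 and WT values did not overlap, and the highest WT value was that of replicate 1, which stood apart. The vehicle mice were 2.62-fold below WT (-1.39 ± 0.15, edgeR adjusted p 1.17e-07), and the log2 difference was -1.26 without the libraries that stood apart.

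Lhx8 had 4.19, 5.78 and 12.9 CPM in treated, 4.35, 5.81 and 8.59 CPM in vehicle, and 9.65, 11.4 and 12.6 CPM in WT striatum. Only treated replicate 5, at 12.9 CPM, reached the WT range. Vehicle mice were 1.86-fold below WT (-0.90 ± 0.18, edgeR adjusted p 0.000273), a smaller fall than that of Chat.

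Ache moved least among the 5. It had 72.5, 81.6 and 152 CPM in treated, 74.5, 83.9 and 106 CPM in vehicle, and 99.1, 110 and 115 CPM in WT striatum. Vehicle and WT values overlapped, and the treated library at 152 CPM was again replicate 5. Vehicle mice were 1.25-fold below WT (-0.32 ± 0.11, edgeR adjusted p 0.0229). This call was the least stable of the 8: it was lost on log2 FPKM, with run tag as a covariate and without vehicle replicate 5, at adjusted p between 0.053 and 0.0898.

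**Figure D1:**
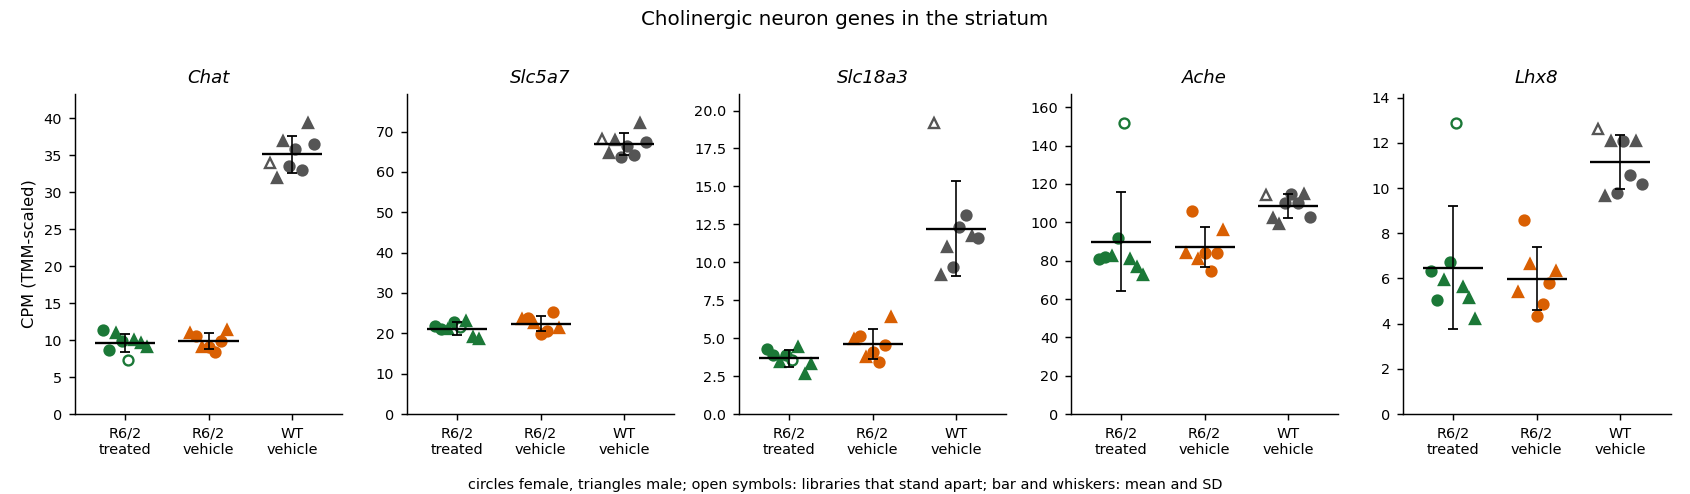
Striatal CPM (TMM-scaled) of the 5 cholinergic neuron genes, 1 symbol per mouse, for treated, vehicle and WT groups on linear axes from 0; bars and whiskers are the mean and SD (n = 8, 7 and 8). Chat, Slc5a7 and Slc18a3 are lower in every R6/2 mouse than in any WT mouse, while the open treated circle (replicate 5) lies at 152 CPM for Ache and 12.9 CPM for Lhx8.

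Chrm4 was the receptor gene with the deepest fall. It had 8.87, 17.4 and 20.1 CPM in treated, 16.7, 17.7 and 20.2 CPM in vehicle, and 48.3, 55.6 and 62.1 CPM in WT striatum, so no R6/2 library came near the WT range. Vehicle mice were 2.99-fold below WT (-1.58 ± 0.11, edgeR adjusted p 1.48e-10). The lowest treated value, 8.87 CPM, was that of replicate 5, whose projection neuron markers were also the lowest; their part in this value was not tested.

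Chrm2, the other Gi/o-coupled receptor gene, had 10.2, 12.8 and 28.4 CPM in treated, 10.2, 10.8 and 15.7 CPM in vehicle, and 14.2, 19.8 and 20.0 CPM in WT striatum. Vehicle mice were 1.57-fold below WT (-0.65 ± 0.16, edgeR adjusted p 0.00168), with some overlap between the groups. The highest value of all, 28.4 CPM, was that of treated replicate 5.

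Of the Gq-coupled receptor genes, Chrm3 had 7.74, 8.64 and 17.2 CPM in treated, 9.41, 9.89 and 11.6 CPM in vehicle, and 11.5, 14.8 and 20.7 CPM in WT striatum, and was 1.48-fold lower in vehicle mice than in WT (-0.56 ± 0.14, edgeR adjusted p 0.00226). Chrm1 had 41.7, 104 and 124 CPM in treated, 108, 116 and 119 CPM in vehicle, and 126, 146 and 166 CPM in WT striatum. Its vehicle values all lay below the WT values, but the difference (-0.32 ± 0.14) missed the threshold (edgeR adjusted p 0.0565). Without treated replicate 5, the library at 41.7 CPM, the same log2 difference of -0.32 had an adjusted p of 7.54e-05. Chrm5 was scarce at 0.170, 0.416 and 1.17 CPM in treated, 0.22, 0.547 and 0.890 CPM in vehicle, and 0.377, 0.702 and 0.928 CPM in WT striatum, and its difference of -0.32 (95% confidence interval -0.955 to 0.314) was not detectable at this depth (edgeR adjusted p 0.402).

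**Figure D2:**
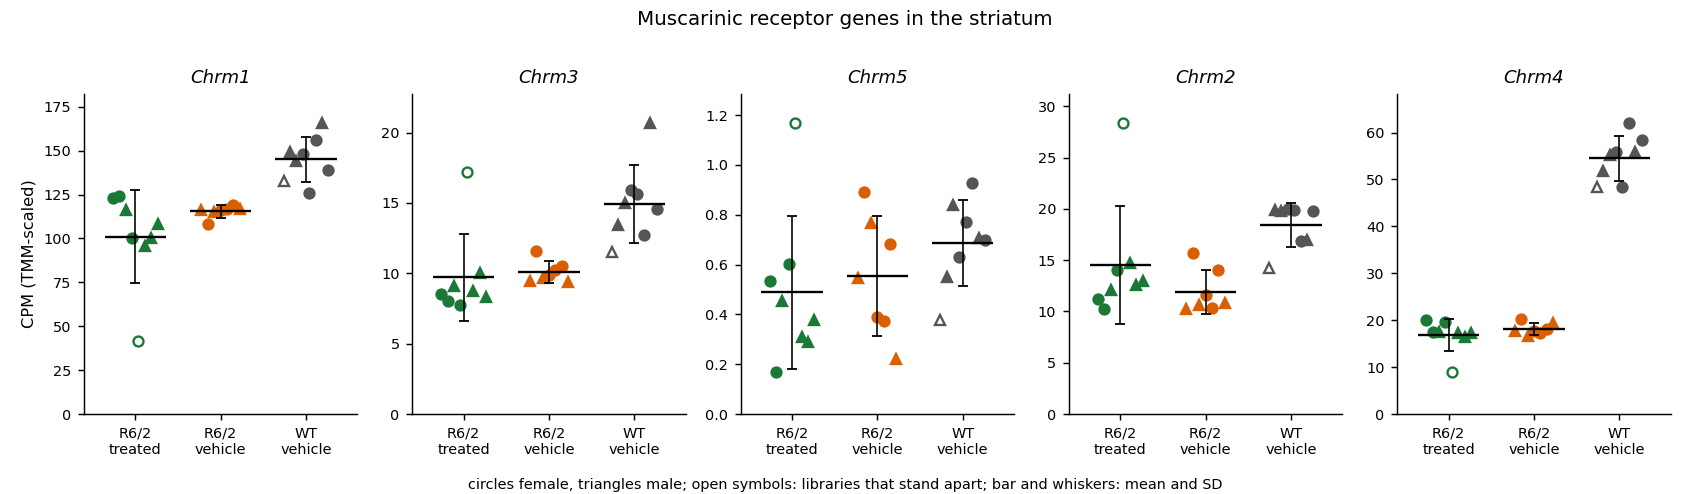
Striatal CPM (TMM-scaled) of the 5 muscarinic receptor genes, 1 symbol per mouse, on linear axes from 0, with mean and SD (treated n = 8, vehicle n = 7, WT n = 8). Chrm4 shows the clearest gap, with R6/2 mice at 8.87 to 20.2 CPM and WT mice at 48.3 to 62.1 CPM; the open treated circle (replicate 5) is the lowest library for Chrm1 and Chrm4 and the highest for Chrm5 and Chrm2.

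Unequal falls changed the balance between genes within a library. The ratio of Chrm4 to Chrm1 FPKM was 0.444, 0.504 and 0.656 in treated, 0.448, 0.468 and 0.573 in vehicle, and 1.02, 1.15 and 1.32 in WT striatum (lowest, median, highest), so Chrm4 exceeded Chrm1 in every WT library and in no R6/2 library. Ache relative to Chat was 8.48, 9.51 and 24.3 in treated, 9.10, 10.4 and 12.0 in vehicle, and 3.25, 3.91 and 4.13 in WT. Lhx8 relative to Chat was 0.816, 0.891 and 2.90 in treated, 0.705, 0.897 and 1.29 in vehicle, and 0.409, 0.490 and 0.553 in WT. R6/2 and WT ranges did not overlap for any of these 3 ratios.

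Chrm2 relative to Chat behaved in the same way, with 0.489, 0.677 and 1.91 in treated, 0.462, 0.603 and 0.733 in vehicle, and 0.207, 0.267 and 0.310 in WT striatum. The pair that serves the nerve terminal stayed closer to Chat. Slc5a7 relative to Chat was 1.04, 1.18 and 1.58 in treated, 1.02, 1.21 and 1.39 in vehicle, and 0.993, 1.02 and 1.10 in WT, and Slc18a3 relative to Chat was 0.318, 0.448 and 0.558 in treated, 0.475, 0.530 and 0.654 in vehicle, and 0.333, 0.359 and 0.658 in WT, with overlap in both. The highest WT ratio for Slc18a3 rests on replicate 1, which stood apart (Slc18a3 at 19.2 CPM, against 9.13 to 13.1 CPM in the other WT striata). Ratios without it were not computed. The treated range also reached below the lowest WT ratio. A ratio of this kind shows unequal change and not which gene stayed constant, and these ratios were not tested.

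**Figure D3:**
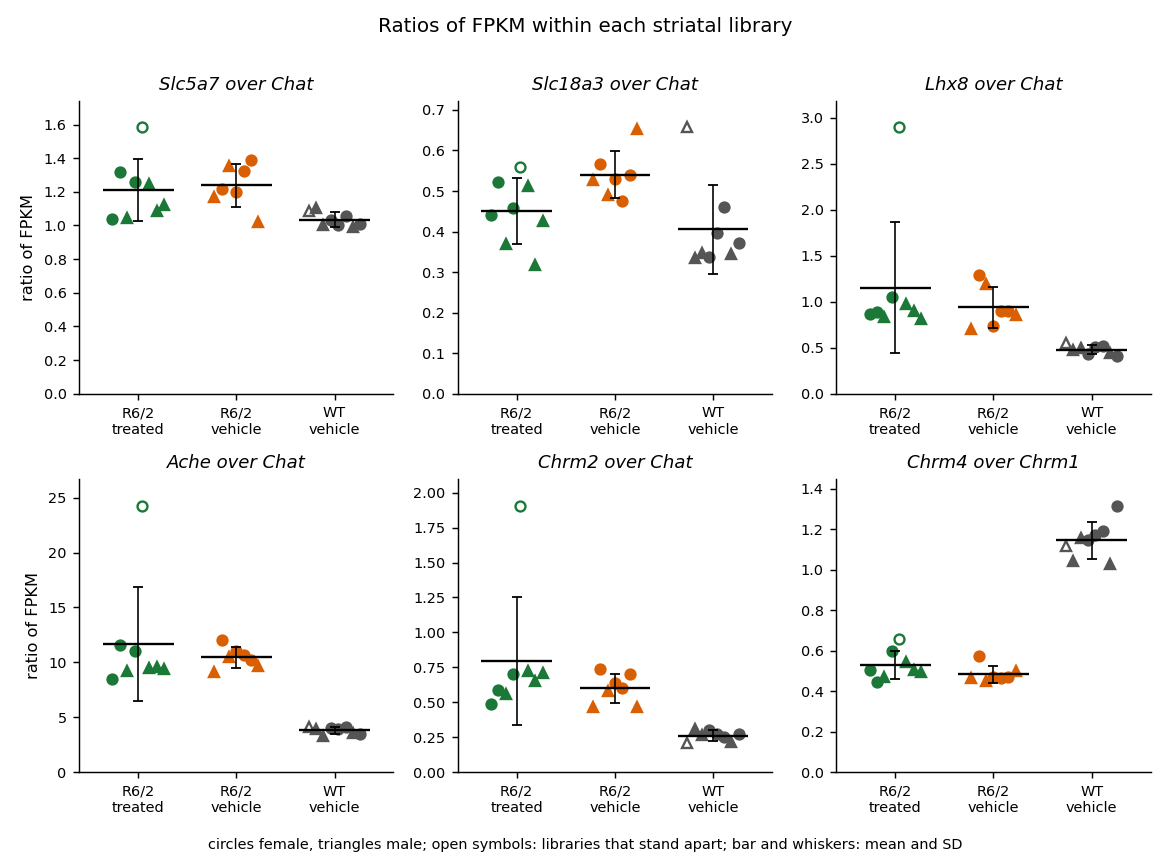
Ratios of FPKM between pairs of members within each striatal library, 1 symbol per mouse, on linear axes from 0, with mean and SD (treated n = 8, vehicle n = 7, WT n = 8). Chrm4 over Chrm1 is below 1 in every R6/2 mouse and above 1 in every WT mouse, and the ratios of Ache, Lhx8 and Chrm2 to Chat are higher in every R6/2 mouse than in any WT mouse.

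The second comparison asks whether the compound altered these genes in R6/2 striatum. No member was called between treated and vehicle mice by edgeR, and 0% of the 17394 genes were called, with 464 genes at an unadjusted p under 0.05 and 1 gene called by DESeq2. The smallest unadjusted p among the members was 0.0413 for Slc18a3, at a log2 difference of -0.33 (95% confidence interval -0.646 to -0.0142), which moved away from the WT level. Chrm2 followed at 0.32 (-0.012 to 0.642, unadjusted p 0.0583), and the difference was 0.09 without the libraries that stood apart. The adjusted p was 1 for all 10 members.

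How large a change these data leave room for differs by gene. For Chat the difference was -0.04, with an interval of -0.207 to 0.121, and for Slc5a7 -0.08, with an interval of -0.191 to 0.0321, narrow beside the differences of -1.81 and -1.57 between vehicle and WT. Chrm4 had -0.10 (-0.329 to 0.123), Ache 0.05 (-0.179 to 0.288), Chrm1 -0.19 (-0.473 to 0.0887) and Chrm3 -0.04 (-0.340 to 0.250). The intervals were wider for Lhx8, at 0.12 (-0.256 to 0.49), and widest for Chrm5, at -0.17 (-0.810 to 0.470). Without treated replicate 5 the log2 difference was 0.00 for Chat and Chrm4, -0.09 for Ache, -0.10 for Lhx8, -0.07 for Chrm1, -0.23 for Chrm3 and -0.47 for Chrm5, none of them called.

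Set against WT, treated striatum was lower for 8 of 10 members and higher for 0, where 52.9% of the genes tested were called, 27.8% higher and 25.2% lower (7450 and 2785 genes on log2 FPKM plus 0.1, with an all-gene median of 0.146). This comparison shares the WT libraries with that of vehicle mice, so the values are given side by side and are not independent. In treated mice the log2 difference from WT was -1.86 for Chat, -1.65 for Slc5a7, -1.72 for Slc18a3 and -1.68 for Chrm4. In vehicle mice it was -1.81 for Chat, -1.57 for Slc5a7, -1.39 for Slc18a3 and -1.58 for Chrm4. For Lhx8 it was -0.78 in treated and -0.90 in vehicle mice, and for Chrm3 -0.61 in treated and -0.56 in vehicle mice.

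Chrm1, which missed the threshold in vehicle mice, was called in treated mice at -0.51 ± 0.13 (edgeR adjusted p 0.00231), and Chrm2, which was called in vehicle mice, was not in treated mice at -0.33 ± 0.15 (0.0689). Neither gene was called when treated and vehicle mice were compared directly. Ache was lower in treated mice than in WT at -0.26 ± 0.11 (edgeR adjusted p 0.0459), a call that was lost when any of 18 of the 23 libraries was left out in turn. Without treated replicate 5, the library at 152 CPM, the same difference was -0.41 (edgeR adjusted p 7.49e-06).

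More members were called without the libraries that stood apart. Then 9 members were lower in vehicle than in WT striatum, with Chrm1 added at -0.34 (edgeR adjusted p 6.17e-05), where 26.3% of genes were called lower. All 10 were lower in treated than in WT striatum, where 26.4% were called lower, with Chrm2 at -0.58 (3.39e-05) and Chrm5 at -0.86 (0.0111). Leaving out treated replicate 5 alone was enough for both, with Chrm2 at -0.53 (1e-04) and Chrm5 at -0.78 (0.0194). No member was called between treated and vehicle mice in that setting either.

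**Figure D4:**
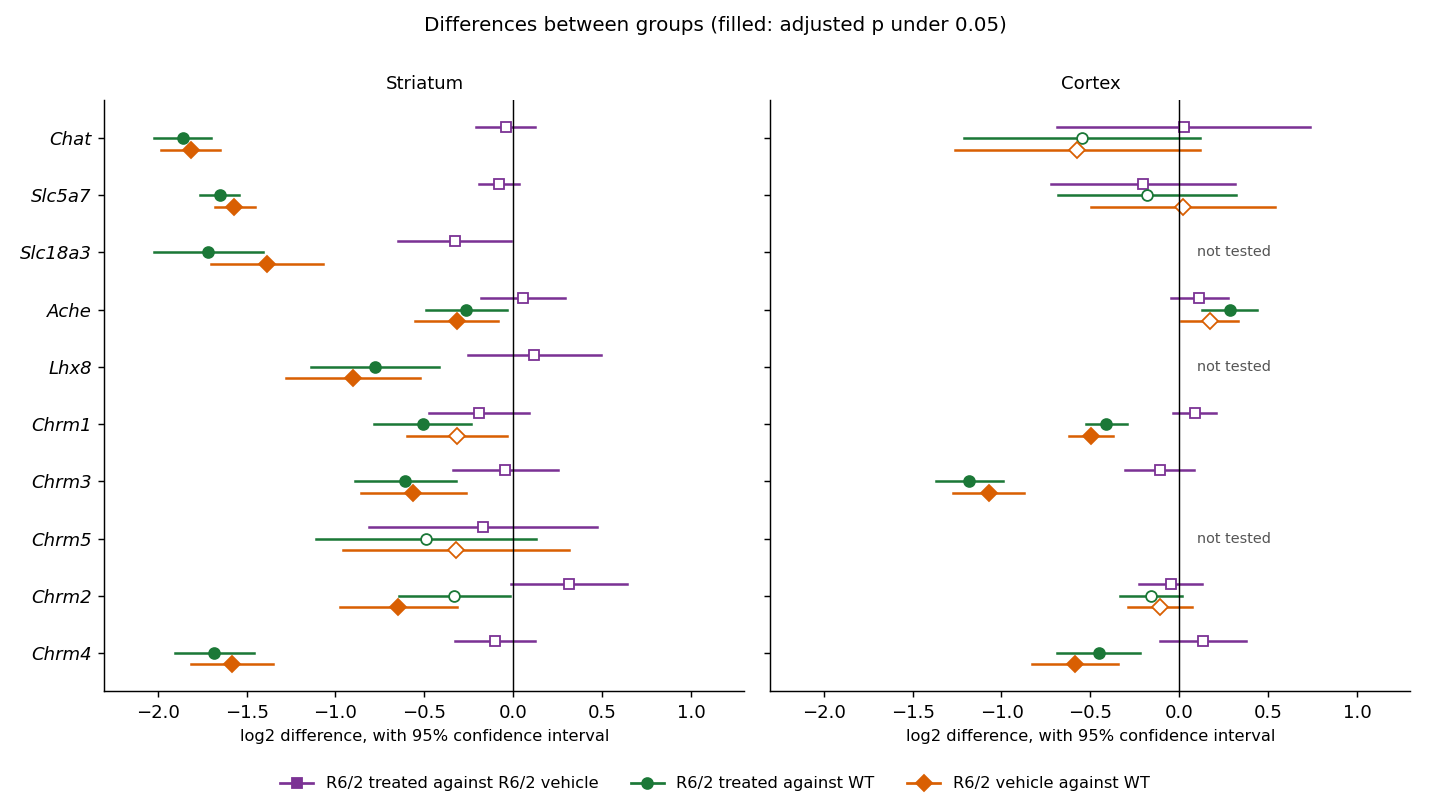
Log2 differences with 95% confidence intervals for the 10 members in striatum and cortex: treated against vehicle (squares), treated against WT (circles) and vehicle against WT (diamonds); filled symbols have an edgeR adjusted p under 0.05. In the striatum Chat, Slc5a7, Slc18a3 and Chrm4 lie between -1.86 and -1.39 against WT, in the cortex Chrm3 lies lowest at -1.18 and -1.07, and every treated against vehicle symbol is open.

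In the cortex the receptor gene with the deepest fall was Chrm3. There Chrm3, Chrm4 and Chrm1 were lower in vehicle mice than in WT, Chrm2 was not called, and neither Chat nor Slc5a7 was called. Of the 7 members tested, 3 were called lower and 0 higher, where 44.1% of 17484 genes were called, 21.5% higher and 22.6% lower. On log2 FPKM plus 0.1 the split was 5469 genes higher and 2992 lower, in place of 3753 and 3959, and 4 members were called, with Ache added as higher (0.25, limma adjusted p 0.0074). The members' median log2 difference was -0.497, against 0.0025 over all genes tested.

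Chrm3 had 29.5, 37.5 and 46.4 CPM in treated, 31.6, 42.0 and 44.7 CPM in vehicle, and 63.9, 85.7 and 98.9 CPM in WT cortex (lowest, median, highest), with no overlap between R6/2 and WT mice. Vehicle mice were 2.10-fold below WT (-1.07 ± 0.09, edgeR adjusted p 5e-09). Chrm1 had 132, 138 and 155 CPM in treated, 118, 129 and 159 CPM in vehicle, and 160, 181 and 204 CPM in WT cortex, and vehicle mice were 1.41-fold below WT (-0.50 ± 0.06, edgeR adjusted p 3.86e-07). Chrm4 had 9.50, 11.9 and 15.2 CPM in treated, 8.27, 10.7 and 14.8 CPM in vehicle, and 12.3, 15.0 and 19.5 CPM in WT cortex, with overlap, and vehicle mice were 1.50-fold below WT (-0.59 ± 0.12, edgeR adjusted p 0.000292).

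Chrm2 stayed near its WT level, with 16.3, 19.5 and 23.1 CPM in treated, 17.6, 20.2 and 23.2 CPM in vehicle, and 17.8, 21.4 and 25.6 CPM in WT cortex. Its log2 difference between vehicle and WT was -0.11, with a 95% confidence interval of -0.290 to 0.0695 (edgeR adjusted p 0.322). Ache ran the other way from the striatum, at 54.5, 64.3 and 79.2 CPM in treated, 47.7, 61.9 and 75.4 CPM in vehicle, and 44.7, 53.1 and 58.7 CPM in WT cortex. The difference between vehicle and WT was 0.17 ± 0.08 (edgeR adjusted p 0.0763).

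Chat and Slc5a7 were measured at low levels in the cortex. Chat had 0.127, 0.311 and 0.533 CPM in treated, 0.132, 0.277 and 0.814 CPM in vehicle, and 0.256, 0.384 and 0.948 CPM in WT cortex, and Slc5a7 had 0.578, 1.14 and 1.66 CPM in treated, 0.975, 1.05 and 3.16 CPM in vehicle, and 0.906, 1.15 and 1.96 CPM in WT cortex. The highest vehicle value of each was that of replicate 4, in which 10 other genes of striatal cholinergic interneurons summed to 34.8 CPM, against 5.68 to 10.6 CPM in the other vehicle cortices, and the striatal projection markers were also the highest of the group. High sums were not confined to that library. The same sum ran from 7.35 to 34.4 CPM in treated cortex (median 12.8 CPM), where no library was set apart, and from 8.84 to 17.1 CPM in WT cortex. With all libraries Chat differed from WT by -0.58 ± 0.33 (edgeR adjusted p 0.171). Slc5a7 differed from WT by 0.02. Without vehicle replicate 4 the difference was -0.28 for Slc5a7 (edgeR adjusted p 0.285) and -0.90 for Chat (0.0271), 4 members were lower, and 22.5% of all genes were called lower.

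Slc18a3, Lhx8 and Chrm5 were too low in the cortex for the main test. Slc18a3 had 2 to 7 counts in treated, 1 to 7 in vehicle and 6 to 12 in WT cortex. Fitted without the filter on low counts, over 28785 genes, its log2 difference was -1.31 ± 0.34 between vehicle and WT (edgeR adjusted p 0.0045), and -1.14 ± 0.33 between treated and WT (0.00837). Lhx8 had 1 to 20 counts in treated, 0 to 25 in vehicle and 0 to 8 in WT cortex, and no call in that fit. Chrm5 had 2 to 32 counts in treated, 1 to 8 in vehicle and 0 to 8 in WT cortex, and in the unfiltered fit was higher in treated mice than in WT (1.93 ± 0.57, edgeR adjusted p 0.0106), but not called against vehicle (1.54 ± 0.57, unadjusted p 0.0119, adjusted p 0.819).

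**Figure D5:**
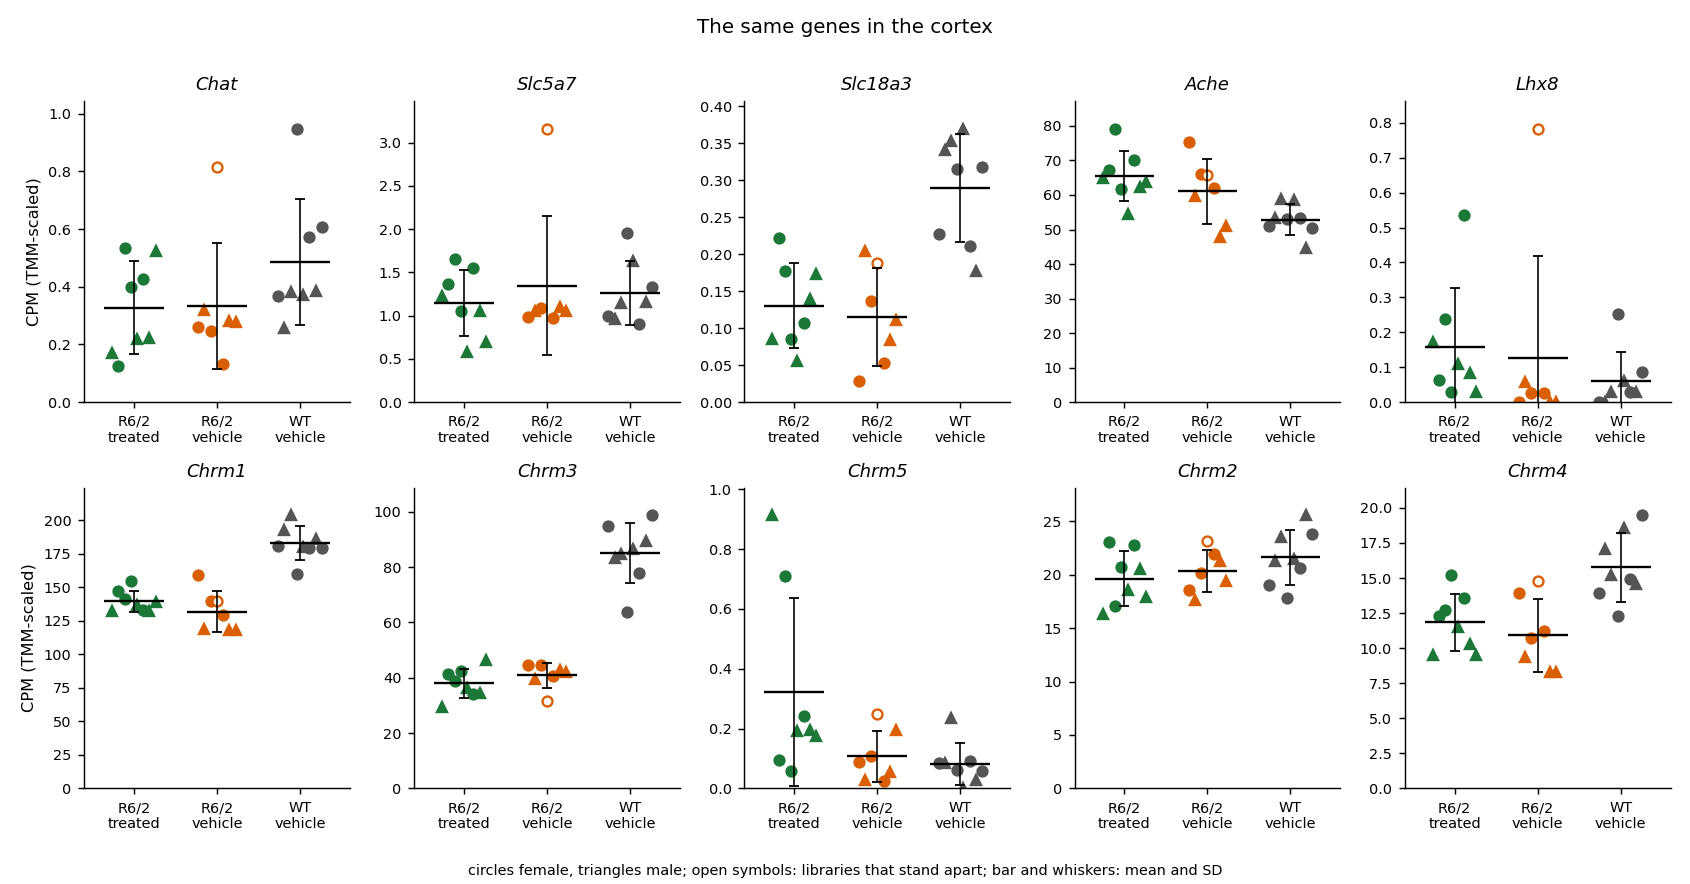
Cortical CPM (TMM-scaled) of the 10 members, 1 symbol per mouse, on linear axes from 0 that differ between panels, with mean and SD (treated n = 8, vehicle n = 7, WT n = 8). Chrm3 and Chrm1 separate R6/2 from WT mice, Chat, Slc5a7, Slc18a3, Lhx8 and Chrm5 lie near the floor, and the open vehicle circle (replicate 4) is the highest vehicle library for Chat, Slc5a7, Lhx8, Chrm5, Chrm2 and Chrm4.

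Between treated and vehicle cortex no member was called by edgeR, and 0% of the 17484 genes were called, with 1015 genes at an unadjusted p under 0.05 and 0 by DESeq2. The log2 differences were 0.09 for Chrm1 (95% confidence interval -0.0339 to 0.208), -0.11 for Chrm3 (-0.304 to 0.0833), 0.13 for Chrm4 (-0.109 to 0.375), -0.05 for Chrm2 (-0.228 to 0.130) and 0.11 for Ache (-0.0486 to 0.271). For Chat (0.03, -0.686 to 0.736) and Slc5a7 (-0.20, -0.719 to 0.312) the intervals were wider. Without vehicle replicate 4 the difference was 0.35 for Chat and 0.11 for Slc5a7, still not called (edgeR adjusted p 0.816 and 0.924).

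Against WT, treated cortex had 1 member higher and 3 lower, where 46.7% of genes were called, 22.8% higher and 23.9% lower (5848 and 3084 genes on log2 FPKM plus 0.1). Chrm3 was 2.27-fold lower (-1.18 ± 0.09, edgeR adjusted p 4.64e-10), Chrm1 1.33-fold lower (-0.41 ± 0.06, 2.66e-06), Chrm4 1.37-fold lower (-0.45 ± 0.11, 0.00198) and Ache 1.22-fold higher (0.28 ± 0.07, 0.00327). These comparisons again share the WT libraries with that of vehicle mice.

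Run tags in the sample descriptions (L numbers whose meaning the labels do not give) split the cortex unevenly: treated libraries carried L5 or L6, WT libraries L7 or L8, and vehicle libraries all 4. Within L7 and L8, vehicle cortex differed from WT by -1.11 for Chrm3, -0.53 for Chrm1 and -0.58 for Chrm4, all still called. The share of all genes called in that smaller fit is not given here, and it was 44.1% in the full cortex fit. Within L5 and L6, treated and vehicle cortex differed by -0.16 for Chrm3, 0.04 for Chrm1, 0.13 for Chrm4 and 0.00 for Ache, none called. With run tag as a covariate, treated against WT kept Chrm3 at -1.39 (edgeR adjusted p 1.32e-05) and Chrm1 at -0.53 (0.000592), while Chrm4 at -0.47 (0.122) and Ache at 0.12 (0.481) were no longer called. For treated against WT in cortex, run tag and treatment cannot be told apart within a tag.

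A direct test of the vehicle effect between tissues, with each mouse's striatum and cortex paired, called 6 of the 10 members, 1 higher and 5 lower in striatum than in cortex, where 15.8% of 18122 genes were called, 7.06% higher and 8.74% lower (2180 and 1091 genes on log2 FPKM plus 0.1). The fall was deeper in striatum for Slc5a7 (difference of log2 differences -1.63 ± 0.24, edgeR adjusted p 2.57e-05), Chat (-1.27 ± 0.34, 0.0109), Chrm4 (-1.05 ± 0.17, 0.000104) and Chrm2 (-0.56 ± 0.19, 0.0452). Ache, lower in striatum and at 0.17 in cortex, differed by -0.52 ± 0.11 (0.00108). Chrm3 differed in the other direction, with a deeper fall in cortex (0.50 ± 0.16, 0.0347). Vehicle and WT striatal libraries shared no run tag with the cortical libraries, so tissue and run tag cannot be told apart here either.

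For Chrm1 the tissues differed by 0.15 (95% confidence interval -0.161 to 0.455), which did not pass. Slc18a3 (-0.07 ± 0.52), Lhx8 (-1.69 ± 0.92) and Chrm5 (-0.68 ± 0.61), which entered this fit through their striatal counts, did not pass either, and their cortical counts leave the difference poorly measured. Without the mice whose libraries stood apart, both tissues left out, it was 0.10 for Slc18a3 and 0.51 for Lhx8. In that setting Chat lost the call (-0.89, edgeR adjusted p 0.0506). Chrm2 lost it in 13 of the 23 fits that left out 1 mouse and Chrm3 in 6 of 23. The effect of treatment did not differ between tissues for any member by edgeR, where 0% of genes were called, 1258 had an unadjusted p under 0.05 and DESeq2 called 0. The lowest unadjusted p values were 0.00511 for Chrm5 (-1.65) and 0.0419 for Chrm1 (-0.32), both at an adjusted p of 0.715.

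The 5 members with the deepest striatal falls were lower in each sex. They were ranked on these same libraries, so this adds no independent support. The share of all genes called within 1 sex is not given here. In females the log2 difference between vehicle and WT striatum was -1.86 for Chat, -1.54 for Slc5a7, -1.42 for Slc18a3, -0.84 for Lhx8 and -1.61 for Chrm4. In males it was -1.76 for Chat, -1.59 for Slc5a7, -1.33 for Slc18a3, -0.92 for Lhx8 and -1.55 for Chrm4. Ache was called in neither sex (-0.32 in females, edgeR adjusted p 0.0998, and -0.30 in males, 0.16). Chrm3 had -0.47 in females (0.0736) and -0.66 in males (0.0238), and Chrm2 -0.56 in females (0.0548) and -0.74 in males (0.0245), so these passed in males and not in females. The difference of females minus males was 0.20 for Chrm3 (95% confidence interval -0.412 to 0.808) and 0.18 for Chrm2 (-0.501 to 0.865). It was -0.10 for Chat (95% confidence interval -0.440 to 0.231) and -0.05 for Chrm4 (-0.521 to 0.412), and no member was called in this test by edgeR. In striatum 0% of all genes were called, with 773 at an unadjusted p under 0.05 and 1 called by DESeq2, and in cortex 0%, with 1097 at an unadjusted p under 0.05 and 17 called by DESeq2.

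In the cortex the point estimates parted more. The effect on Chrm1 was -0.31 in females and -0.71 in males, a difference of 0.39 ± 0.09 (unadjusted p 0.00015, edgeR adjusted p 0.521). For Chrm4 it was -0.27 in females and -0.94 in males (0.68 ± 0.19, unadjusted p 0.0018, edgeR adjusted p 0.54), and for Ache 0.36 in females and -0.05 in males (0.41 ± 0.14, unadjusted p 0.00599, edgeR adjusted p 0.611). DESeq2 called Chrm1 at an adjusted p of 0.0226. These rest on 3 vehicle males. The vehicle females include replicate 4, which stood apart and had the highest Chrm4 of its group (14.8 CPM, against 8.27 to 13.9 CPM in the others). The sex differences were not computed without it.

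Genes known with the members moved unevenly. Their counts stand beside the shares over all genes tested, 25.8% higher and 24.5% lower in striatum and 21.5% higher and 22.6% lower in cortex. These lists and the marker lists were chosen with earlier results of these data known, so the contrasts are descriptions only. Of 10 other genes of striatal cholinergic interneurons, 1 was higher and 7 were lower in vehicle than in WT striatum, with a median log2 difference of -1.36. The largest falls were those of Ngfr, the low-affinity neurotrophin receptor (-1.77 ± 0.22, edgeR adjusted p 5.44e-07), the homeobox gene Gbx1 (-1.77 ± 0.25, 3.63e-06) and Ecel1 (-1.56 ± 0.20, 1.26e-06). Their summed level was 85.5 to 172 CPM in treated, 85.8 to 111 CPM in vehicle and 202 to 249 CPM in WT striatum, with the 172 CPM in treated replicate 5. In the cortex 6 of the 10 could be tested, and 0 were higher and 2 lower, Ngfr at -0.99 ± 0.30 and Slc17a8, a vesicular glutamate transporter, at -0.69 ± 0.16.

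Of 8 genes for acetylcholine supply and cholinesterase partners, 2 were higher and 4 lower in vehicle than in WT striatum, at a median of -0.153. They were led by Prima1, the membrane anchor of acetylcholinesterase in brain (-1.55 ± 0.10, edgeR adjusted p 2.03e-11), Colq, its collagen tail (-1.24 ± 0.20, 2.58e-05), and Acly, which makes acetyl-CoA from citrate (-0.68 ± 0.04, 2.64e-12). Prima1 fell further than Ache itself. In the cortex 0 of the 8 were called.

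Nicotinic receptor subunits and helpers gave 2 higher and 2 lower of 12 tested in striatum, at a median of -0.269, among them Lynx1, a protein that restrains nicotinic receptors (-1.50 ± 0.10, edgeR adjusted p 4.32e-11), Chrna4 (-1.42 ± 0.35, 0.00164) and Chrnb2, which was higher (0.23 ± 0.06, 0.00401). In the cortex 1 was higher and 7 lower of 13 tested, at a median of -0.249, led by Chrna3, which is also on the list of habenula and thalamus markers (-2.78 ± 0.34, 6.91e-07), Chrnb3 (-2.58 ± 0.30, 2.96e-07) and Chrna6 (-1.79 ± 0.28, 1.91e-05).

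Downstream of M1, M3 and M5, 2 of 10 Gq and M-current genes were higher and 7 lower in vehicle than in WT striatum, at a median of -0.499, with the calcium release channel Itpr1 at -0.99 ± 0.16 (edgeR adjusted p 2.45e-05) and the M-current subunits Kcnq3 at -0.70 ± 0.13 (0.000124) and Kcnq5 at -0.66 ± 0.09 (4.2e-06). In the cortex 1 was higher and 6 lower, at a median of -0.325, with Kcnq5 at -0.77 ± 0.08 (1.01e-07), Itpr1 at -0.58 ± 0.09 (2.57e-05) and Plcb1, a Gq-activated phospholipase, at -0.58 ± 0.06 (3.82e-08). Downstream of M2 and M4, 3 of 10 Gi/o genes were higher and 4 lower in striatum, at a median of -0.111, counts that lie near those shares of all genes. Rgs4, which curtails G protein signals, had -1.78 ± 0.15 (3.16e-09), the striatal adenylyl cyclase Adcy5 -1.41 ± 0.12 (3.49e-09) and the G protein Gnao1 -0.36 ± 0.04 (6.28e-07). In the cortex 2 were higher and 3 lower, at a median of 0.0277, with Rgs4 at -1.20 ± 0.10 (2.42e-09) and the potassium channel subunit Kcnj9 at -0.91 ± 0.08 (2.76e-09). Between treated and vehicle mice edgeR called 0 genes of these lists in either tissue.

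Markers of other cells moved with the members. In vehicle against WT striatum, 0 of 11 markers of other interneurons were higher and 10 lower (median -0.916), and 0 of 10 markers of projection neurons were higher and 9 lower (median -1.30). Their summed level was 713 to 2840 CPM in treated, 2350 to 2760 CPM in vehicle and 5400 to 7170 CPM in WT striatum for the projection neuron markers. For the other interneuron markers it was 163 to 275 CPM in treated, 167 to 240 CPM in vehicle and 327 to 373 CPM in WT striatum. All 4 astrocyte markers, 2 of 4 oligodendrocyte markers, 3 of 4 microglia markers and 3 of 3 endothelial markers were also lower, and 0 of these were higher. Of 7 cortical projection markers 1 was higher and 2 lower, of 7 habenula and thalamus markers 0 were higher and 3 lower, and 0 of 4 choroid plexus markers were called. Whether these shifts account for part of the members' values was not tested. In the cortex 0 of 11 interneuron markers were higher and 10 lower (median -0.939), and 1 of 7 cortical projection markers was higher and 5 lower. There 0 of 6 habenula and thalamus markers were higher and 4 lower (median -0.493), 4 of 10 striatal projection markers, 3 of 4 astrocyte markers and 2 of 4 oligodendrocyte markers were lower with 0 higher, and 0 of the microglia, endothelial and choroid plexus markers were called. The part of these markers in the cortical nicotinic and muscarinic values was not tested.

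Genes that varied with Chat and with Chrm4 among mice of 1 group and sex are given as a description over the 23 striatal libraries, which come from 1 tissue and 1 sequencing effort. After group means and the sex difference were removed, the genes most correlated with Chat among 14899 were Arhgap17 (Pearson r 0.818), Pear1 (0.745), Pex10 (0.732), Slc17a8 (0.726), Speg (0.725) and Baz1a (0.714), of which Slc17a8 is itself known from cholinergic interneurons. With Chrm4 they were Ankrd63 (0.939), Scn4b (0.926), Sec14l1 (0.925), Sh3rf2 (0.917), Mink1 (0.915) and Arhgef2 (0.912). Over the 21 libraries without those that stood apart, none of these 6 was among the 6 most alike to Chrm4, and the highest r was 0.815, for Ankrd13b. With Chat, Arhgap17 had 0.774 over those 21 libraries.

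Among the members, the same correlation of Chat was 0.415 with Slc18a3, 0.406 with Slc5a7, -0.0434 with Lhx8 and -0.186 with Ache over all 23 libraries, and its highest values were 0.681 with Chrm4 and 0.508 with Chrm1. Without the libraries that stood apart it was 0.687 with Slc18a3, 0.533 with Slc5a7, 0.631 with Lhx8, 0.605 with Ache, 0.561 with Chrm4 and 0.0257 with Chrm1 over 21 libraries. That of Chrm4 with Chrm1 was 0.899 over 23 libraries and 0.301 over 21.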

How the data were processed

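Striatum and cortex of 23 mice were measured in 46 RNA-seq libraries. Per the submitters' processing notes, CASAVA 1.8.2 and mm10 were used; aligner, quantification tool, annotation, strandedness and kind of RNA enrichment: not given in the sources used here. The authors deposited gene-level estimated counts, of which 33.8% were not whole within 1e-06, and FPKM values, whose denominator is not stated. Estimated counts were rounded to whole numbers before testing.

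Genes were matched by Ensembl ID, and 42462 of 43346 (98%) had a symbol. CPM were computed with TMM scaling. Each tissue was fitted in edgeR 4.0.16 (R 4.3.3; filterByExpr, glmQLFit, glmQLFTest) with the 3 groups and sex as terms, and p-values were Benjamini-Hochberg adjusted over all genes tested and called under 0.05. Differences between tissues used all 46 libraries with a block term for each animal, known from the animal codes in the labels; deviations of 1 mouse's striatum and cortex correlated in all 23 pairs (r 0.14 to 0.67, median 0.52). SE is the log2 difference divided by the root of F. The procedure was tested on simulated data with few changed genes, a constant spread and no library standing apart. Those settings differ from these data, so the test does not cover the effect of such libraries or of widespread change.

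Alternatives were DESeq2 1.42.0, RLE scaling, no filter, limma 3.58.1 on log2 of FPKM plus 0.1 or plus 1, no sex term, run tag, a replicate block, only the 2 groups compared, and leaving out each library or mouse. The setting without the 3 libraries that stand apart was added after seeing the data. In the fits across tissues it left out both libraries of the mice concerned. Likeness is Pearson's r of log2 CPM (prior count 2) among genes with a mean of at least 1 CPM. On each list the 3 called genes with the largest change are named, and all 10 members are given; a gene picked by this rule and one by likeness are not reported here. Members and lists were chosen with earlier results of these data known. Gene models came from GENCODE vM21 (mm10) and promoters from RefSeq (GRCm38.p6), which matched 9 of the 10 members, not Chrm1. Counts carry no molecular identifiers, so precision reflects the spread between mice.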

Additional observations from a re-analysis of the deposited data

Results flagged for a closer look

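Of 60 groups of values tested for a sample far from the others (10 genes in 6 groups), 16 were flagged. The rule flags about 1 in 20 by chance only for independent, normally spread values. These genes share libraries and some have very low counts, so the number flagged is not set against that rate. Treated striatum replicate 5 held 7 of them: Ache at 152 CPM against 72.5 to 91.9 CPM in the other treated striata, Lhx8 at 12.9 against 4.19 to 6.72, Chrm3 at 17.2 against 7.74 to 10.0, Chrm5 at 1.17 against 0.170 to 0.601, Chrm2 at 28.4 against 10.2 to 14.7, Chrm1 at 41.7 against 95.9 to 124, and Chrm4 at 8.87 against 16.4 to 20.1 CPM. In that library Chat was also the lowest of the group, at 7.37 against 8.65 to 11.4 CPM, without being far enough to be flagged. The projection neuron markers summed to 713 CPM against 2050 to 2840 CPM and the other cholinergic interneuron genes to 172 CPM against 85.5 to 107 CPM; the part of these markers was not tested.

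Vehicle cortex replicate 4 held 4 flagged values: Chat at 0.814 CPM against 0.132 to 0.321 CPM in the other vehicle cortices, Slc5a7 at 3.16 against 0.975 to 1.10, Lhx8 at 0.783 against 0 to 0.0584, and Chrm3 at 31.6 against 39.6 to 44.7 CPM. Its striatal projection markers summed to 341 CPM against 137 to 145 CPM.

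The other flagged samples were Slc18a3 in WT striatum replicate 1 (19.2 CPM against 9.13 to 13.1 CPM), Chrm1 in vehicle striatum replicate 2 (108 against 115 to 119), Lhx8 in treated cortex replicate 6 (0.535 against 0.0285 to 0.237) and in WT cortex replicate 4 (0.253 against 0 to 0.0866), and Chrm5 in WT cortex replicate 3 (0.235 against 0 to 0.0906).

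The effect of the transgene in vehicle mice differed between striatum and cortex for 6 members by the test of the difference itself (edgeR, animal as a block). The difference, striatum minus cortex on the log2 scale, was -1.627 for Slc5a7, -1.265 for Chat, -1.048 for Chrm4, -0.5582 for Chrm2, -0.5235 for Ache and 0.501 for Chrm3.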

How the results depend on the processing

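Over 2532 values of single members under the alternatives, 2396 kept their direction and side of the threshold, 56 lost the call, 22 gained it and 58 turned their sign, none of these called before or after; of 570 counts of called genes or members, 562 stayed within 1.5 times. The 8 others were as follows. DESeq2 called 1 gene between treated and vehicle striatum, and for the difference between the sexes 1 gene in striatum and 17 in cortex, of which 1 was a member (Chrm1), where edgeR called 0 each time; log2 FPKM plus 1 called 2 genes for the sexes in cortex. With run tag as a covariate, treated against WT cortex gave 4062 genes and 2 members in place of 8164 and 4. Without both libraries of the mice with a library that stands apart, 1 gene was called for the treatment effect between tissues in place of 0.

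Ache was the least stable call: treated against WT striatum was lost in 18 of 23 leave-one-out fits, at an adjusted p of up to 0.0945, and between vehicle and WT cortex Ache was called in 6 alternatives, at 0.20 to 0.25. On log2 FPKM plus 0.1 and plus 1 the difference between tissues was also called for Slc18a3 (-0.67 and -0.85) and Lhx8 (-0.91 and -0.67, limma adjusted p 0.0499 and 0.000818), and was lost for Chrm2 (-0.47 and -0.35, 0.094 and 0.111).

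The turned signs were those of small or poorly measured differences. Without the libraries that stand apart, treated against vehicle striatum gave 0.0011 for Chat, -0.092 for Ache and -0.10 for Lhx8. In that setting treated against vehicle cortex gave 0.11 and vehicle against WT cortex -0.28 for Slc5a7. With both libraries of those mice left out, the vehicle effect between tissues was 0.10 for Slc18a3 and 0.51 for Lhx8. The treatment effect between tissues was then -0.093 for Slc5a7 and -0.0070 for Chrm3. With run tag as a covariate, treated against vehicle cortex gave 0.13 for Slc5a7, -0.030 for Ache, -0.0062 for Chrm1 and 0.086 for Chrm2, and treated against WT cortex 0.091 for Chat, 0.55 for Slc5a7 and 0.031 for Chrm2. Within L5 and L6, treated against vehicle cortex gave 0.18 for Slc5a7, -0.0013 for Ache and 0.092 for Chrm2. For Chat it was -0.0060 with no sex covariate. On log2 FPKM plus 1 the treatment effect between tissues was -0.017 for Slc5a7 and 0.096 for Lhx8. Leaving out 1 library or mouse, the ranges that crossed 0 were, for treated against vehicle striatum, -0.093 to 0.0019 for Chat, -0.094 to 0.097 for Ache, -0.10 to 0.22 for Lhx8, -0.23 to 0.0068 for Chrm3 and -0.15 to 2.3e-05 for Chrm4. In cortex they were -0.16 to 0.35 for Chat and -0.29 to 0.11 for Slc5a7 between treated and vehicle, and -0.28 to 0.12 for Slc5a7 between vehicle and WT. For the vehicle effect between tissues they were -0.23 to 0.052 for Slc18a3 and -2.45 to 0.48 for Lhx8, and for the treatment effect -0.39 to 0.13 for Chat, -0.18 to 0.20 for Slc5a7, -2.61 to 0.13 for Lhx8 and -0.10 to 0.12 for Chrm3.

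The replicate numbers of the titles do not pair mice: deviations of same-numbered, same-sex libraries correlated at -0.36 to 0.10 in striatum and -0.27 to 0.23 in cortex, and 0 and 1 libraries of 23 correlated best with their own number. With these numbers as a replicate block (8 levels), vehicle against WT gave 8277 genes in striatum and 7351 in cortex, and treated against WT 8938 in striatum and 7861 in cortex; the call that changed among the members was Chrm2 in treated against WT striatum, gained at -0.37 (adjusted p 0.0254), while uncalled signs turned in cortex for Slc5a7 between vehicle and WT (-0.032) and for Chat between treated and vehicle (-0.079). The fits across tissues have the animal as their block. With no replicate block there, that is without the animal term, the difference between tissues gave 2013 genes and Chrm3 had an adjusted p of 0.0576, and WT striatum against cortex gave 10281. Counts of a few reads limit Slc18a3, Lhx8 and Chrm5 in cortex.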

Other observations

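Between striatum and cortex of WT mice, 62.8% of all genes tested were called, 31.2% higher and 31.6% lower in striatum, and the lists below are given beside those shares. Tissue and run tag cannot be told apart in this comparison. Of 10 other genes of striatal cholinergic interneurons 9 were higher and 0 lower in striatum, with a median log2 difference of 4.91, among them Slc10a4 (6.88 ± 0.28) and the LIM homeodomain gene Isl1 (6.67 ± 0.40). Of 8 genes for acetylcholine supply and cholinesterase partners 5 were higher and 1 lower, with Prima1 at 3.34 ± 0.13, Colq at 1.801 ± 0.20 and Acly at 0.94 ± 0.04. Of 14 nicotinic subunits and helpers tested 1 was higher and 7 lower in striatum, with Chrnb3 at -4.08 ± 0.30, Chrna5 at -2.52 ± 0.17 and Chrnb4 at 2.27 ± 0.39.

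Isl1, which directs striatal cholinergic neurons with Lhx8, was the 1 gene of its list that was higher in vehicle than in WT striatum. For the difference of the vehicle effect between tissues, Acly had -0.75 ± 0.05, Prima1 -1.34 ± 0.21 and Adcy5 -1.53 ± 0.15, each with a deeper fall in striatum (edgeR adjusted p 4.89e-10, 7.01e-05 and 1.01e-07).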
